A study of Mus musculus with 23 samples.

Results

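The antioxidant and conjugation genes described here are 10 genes of the mouse liver: Nqo1, Gclc, Gclm, Hmox1, Txnrd1 and Srxn1, which are widely used as targets of the transcription factor NRF2, and Gsta1, Gstm1, Gstm3 and Gstp1, which encode glutathione transferases. They were chosen by gene symbol, and all 10 were found among the 27179 genes of the count table, each at 1 CPM or more in the mean of some group (CPM are counts after scaling of the libraries to a common size). RNA was measured by poly(A)-selected sequencing in liver tissue free of visible tumors from 15 female mice. The 6 Ctrl mice carried Alb-Cre, Trp53 flx/flx, Icmt flx/+ and wild-type Braf. The 6 ABpIF/+ mice carried Alb-Cre, the BrafV600E knockin allele (BrafCA/+), Trp53 flx/flx and Icmt flx/+, and the 3 ABpIF/F mice differed from them in being Icmt flx/flx. Alb-Cre and the Trp53 deletion were therefore shared by all groups, controls included, and no mouse with intact Trp53 was compared. Recombination was driven by the albumin promoter, which is active in hepatocytes, so the alleles were not targeted in every cell of the liver. The genotype labels of both Braf groups carry the Braf locus as BRAF +/+, whereas the design of the study gives BrafCA/+, and the groups follow the design. Individual ages were not in the labels. All ABpIF/+ and ABpIF/F mice shared 1 cross label with only 1 of the 6 Ctrl mice, the other 5 Ctrl mice having a shorter cross label, so that cross and Braf genotype largely coincide. ICMT is the enzyme that methylates the C-terminal cysteine of prenylated proteins such as RAS, and the comparisons ask what BrafV600E does to these genes in a p53-deficient liver and what is different when Icmt is also deleted.

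NRF2, encoded by Nfe2l2, is kept low by KEAP1, an adaptor that hands it to the CUL3 ubiquitin ligase. When electrophiles or oxidants modify KEAP1, NRF2 accumulates, pairs with a small MAF protein and binds antioxidant response elements, a place for which the repressor BACH1 competes. In the liver the pathway is known for raising glutathione synthesis, quinone reduction and the conjugation of foreign compounds, but each of its targets also answers to other regulators.

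The core of the antioxidant response element, TGACNNNGC, was searched on both strands in the 250 bases upstream of the RefSeq gene starts (build GRCm38.p6), to show which of these genes carry it next to the start. Promoter entries were present for 8 of the 10 genes, Gclc and Hmox1 having none, and 2 of the 8 held a match, Gclm and Txnrd1. In the whole table, 11.5% of 27025 genes (10.2% of 32851 promoters) held one. Of 25 genes of the glutathione transferase family with an entry, 4 held a match, namely Gsta3, Gstm5, Gstm7 and Mgst1. The 60 bases around each match follow, 5′ to 3′ on the strand of the gene, with the match in capitals. It reads as the reverse complement of the core in Gclm, Txnrd1 and Mgst1.
Gclm: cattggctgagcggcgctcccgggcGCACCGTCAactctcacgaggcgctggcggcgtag
Txnrd1: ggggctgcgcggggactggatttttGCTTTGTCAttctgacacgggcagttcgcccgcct
Gsta3: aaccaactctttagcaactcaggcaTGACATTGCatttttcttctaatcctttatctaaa
Gstm5: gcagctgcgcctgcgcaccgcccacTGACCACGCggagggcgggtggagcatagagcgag
Gstm7: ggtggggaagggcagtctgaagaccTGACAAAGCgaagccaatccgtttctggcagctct
Mgst1: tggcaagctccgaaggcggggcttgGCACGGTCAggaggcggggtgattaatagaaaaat
The windows lie at chr3:122245398-122245457 (Gclm, plus strand), chr10:82859089-82859148 (Txnrd1, plus strand, one of 3 starts), chr1:21240439-21240498 (Gsta3, plus strand), chr3:107895787-107895846 (Gstm5, plus strand), chr3:107931709-107931768 (Gstm7, minus strand) and chr6:138140446-138140505 (Mgst1, plus strand). The match began 134 bases before the start in Gclm and 92 bases before it in Txnrd1. For the other genes these letters are not in this window, which says nothing of elements farther away.

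Between 24742910 and 32262649 reads were counted per mouse. Icmt, the targeted gene, was at 15.2 to 16.6 CPM in ABpIF/F mice against 27.8 to 37.4 CPM in the other mice, and the source of the remaining signal was not tested. Trp53 was at 4.29 to 6.74 CPM in Ctrl, 12.3 to 16.8 in ABpIF/+ and 9.78 to 12.4 CPM in ABpIF/F mice, and Braf, whose knockin allele is not told apart by gene counts, was at 14.1 to 29.2 CPM. Hepatocyte markers were abundant in every mouse and also moved with the groups: 6 of 8 were higher and 1 lower in ABpIF/+ than in Ctrl mice (sums of 171358 to 240280 against 90131 to 123620 CPM), and the ABpIF/F mice were at 121640 to 213877 CPM. All 6 stellate cell and fibroblast markers were lower in ABpIF/+ mice than in both other groups (21.9 to 54.6 CPM against 112 to 135 in Ctrl and 144 to 235 in ABpIF/F). Of 12 macrophage markers, 8 were lower and 1 higher in ABpIF/+ than in Ctrl mice (177 to 317 against 427 to 591 CPM), 6 of 7 cholangiocyte markers were higher in ABpIF/F than in Ctrl mice (205 to 1150 against 35.8 to 68.4 CPM), and all 8 pericentral hepatocyte markers were lower in both Braf groups (2695 to 5762 CPM in ABpIF/+ and 1031 to 2838 in ABpIF/F against 10032 to 14013 in Ctrl). Most of the cholangiocyte sum was Spp1, at 175 to 1081 CPM in ABpIF/F mice and a median of 45.3 CPM in Ctrl mice. The sum therefore mainly follows that gene. The mice labelled BG38 and malpa387 stood apart. The first, an ABpIF/F mouse, had the highest TMM scaling factor (1.24), the highest cholangiocyte sum (1150 CPM) and the highest neutrophil sum (64.3 CPM). Its macrophage (841 CPM), stellate cell and fibroblast (235 CPM) and lymphocyte sums (12.3 CPM) were also the highest of all mice. Its pericentral (1031 CPM) and periportal hepatocyte sums (2996 CPM) were the lowest. The Ctrl mouse malpa387 was unlike the other 5 Ctrl mice in its circadian clock genes: a score over 16 clock genes (the first principal component, 84.1% of their variance) was 8.54 in it, between 5.84 and 11.0 in the 3 ABpIF/F mice and between -3.81 and -1.96 in the other 11. The part of these differences in the results below was not tested beyond the fits given beside them, and in bulk liver fewer cells of a type and less RNA per cell cannot be told apart.

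Levels of different genes were compared per kilobase of exon. Gstm1 was the most abundant of the 10, at 773 ± 216 CPM per kb in Ctrl (SD, n = 6 mice), 1078 ± 198 in ABpIF/+ (n = 6) and 1050 ± 674 in ABpIF/F mice (n = 3). Gstp1 came second in each group, at 95.8 ± 15.9, 212 ± 19.3 and 188 ± 9.76 CPM per kb. Gclc and Gstm3 followed, at 50.5 ± 10.9 and 41.5 ± 12.8 CPM per kb in Ctrl, a gap within their spread. Gclm (20.3 ± 2.07) and Txnrd1 (19.5 ± 1.89 CPM per kb in Ctrl) likewise did not differ beyond their spread. Srxn1, Hmox1 and Nqo1 were lower, at 13.1 ± 1.15, 8.90 ± 1.01 and 7.17 ± 1.40 CPM per kb in Ctrl, and Gsta1 was at the bottom, at 1.21 ± 2.01. In ABpIF/+ and ABpIF/F mice Hmox1 followed next after Gstm3, at 18.3 ± 8.96 and 18.4 ± 8.66 CPM per kb, within the spread of its neighbours.

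A gene is called changed at an adjusted p under 0.05 in edgeR's quasi-likelihood test (Benjamini-Hochberg over all 27179 genes, one fit to the 15 mice), and a stricter rule asks for an adjusted p under 0.01 and a 2-fold difference. Between ABpIF/+ and Ctrl mice 6 of the 10 genes changed, where 25.5% of all genes did (12.7% higher and 12.7% lower): Nqo1, Hmox1 and Gstp1 were higher and Gclc, Gclm and Gstm3 lower. Between ABpIF/F and Ctrl mice 2 changed, Gstp1 higher and Gclm lower, against a background of 17.1% (9.70% higher and 7.36% lower). Between ABpIF/+ and ABpIF/F mice 4 changed, Nqo1 being higher in ABpIF/+ and Gclc, Gsta1 and Gstm3 lower, against 18.2% (7.46% higher and 10.7% lower). By the stricter rule 2 (Gclc and Gstp1), 0 and 1 (Gclc) remained, against 10.0%, 6.93% and 7.24% of all genes. These shares are over all 27179 genes, of which 20380 had a read in any mouse and 12316 averaged 1 CPM or more. Genes without reads cannot be called, so the shares are lower than among expressed genes like these 10. No share was computed for such genes. For the 0 of ABpIF/F vs Ctrl, edgeR gave 2 genes at an adjusted p under 0.01, neither of them 2-fold, and 1 at an unadjusted p under 0.05 and 2-fold, and DESeq2 gave 1 by the stricter rule (Hmox1). Among mice of the shared cross label, which leave 1 Ctrl mouse, Gclc and Gstp1 still passed in ABpIF/+ vs Ctrl, while Nqo1 (0.48), Gclm (-0.70), Hmox1 (0.80) and Gstm3 (-1.02) had the same direction on the log2 scale and did not. The median log2 fold change of the 10 genes was -0.16, 0.37 and 0.02 in the 3 comparisons, beside 0.0171, -0.000772 and 0.038 for the 12316 genes averaging 1 CPM or more over all mice. Members of the group thus changed in both directions. Both comparisons with Ctrl use the same Ctrl mice.

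**Figure D1:**
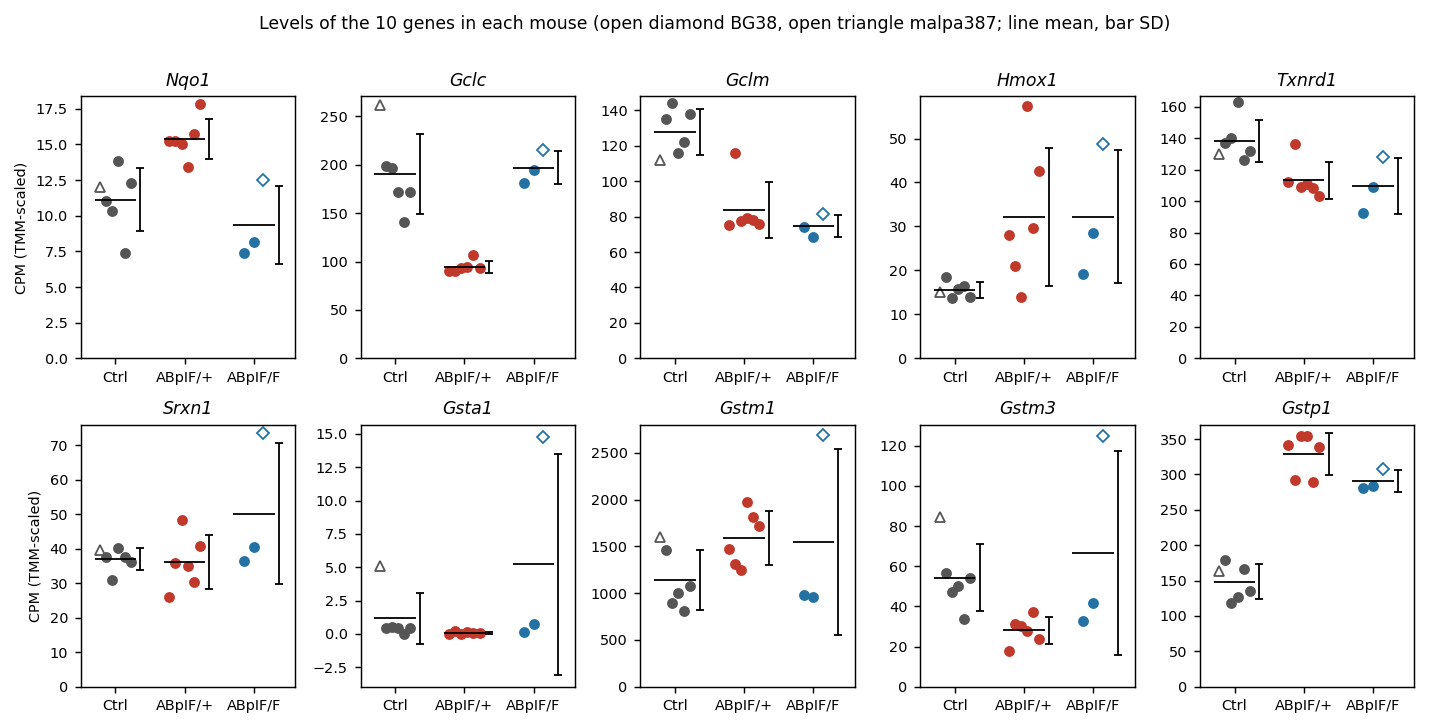
TMM-scaled CPM (vertical axis, linear) of each of the 10 genes in the 6 Ctrl, 6 ABpIF/+ and 3 ABpIF/F mice. Each point is 1 mouse, the line is the mean and the bar the SD (it runs below 0 for Gsta1). Gclc in ABpIF/+ mice (90.2 to 107 CPM) lies below all other mice, Gstp1 in Ctrl mice (119 to 179 CPM) lies below both Braf groups, and BG38 is the highest mouse for Srxn1, Gsta1, Gstm1 and Gstm3.

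Gclc and Gclm encode the catalytic and the modifier subunit of glutamate-cysteine ligase, the rate-limiting enzyme of glutathione synthesis, and they followed different patterns. Gclc (chr9:77754535-77794485, plus strand, GRCm38) ranged from 141 to 262 CPM in Ctrl mice with a median of 184. In ABpIF/+ mice it ranged from 90.2 to 107 CPM with a median of 93.0, and the 3 ABpIF/F mice were at 181, 195 and 215 CPM. All 6 ABpIF/+ mice were thus below every other mouse, and ABpIF/F mice lay within the Ctrl range. By edgeR the log2 fold change was -1.01 (SE 0.13, adjusted p = 2.67e-06) in ABpIF/+ vs Ctrl, 0.05 (SE 0.16, adjusted p = 1) in ABpIF/F vs Ctrl and -1.06 (SE 0.15, adjusted p = 4.65e-05) in ABpIF/+ vs ABpIF/F. The first and the last kept their call in each of the 15 fits that leave out 1 mouse. With the clock score as a covariate the ABpIF/+ vs Ctrl difference was -0.89 (adjusted p = 5.11e-06), and that between ABpIF/+ and ABpIF/F was -0.55 and no longer passed (adjusted p = 0.212). Because all 3 ABpIF/F mice and none of the ABpIF/+ mice had a high clock score, genotype and clock state cannot be told apart in this last comparison.

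Gclm (chr3:122245557-122270732, plus strand) was lower in both Braf groups. It ranged from 112 to 144 CPM in Ctrl mice (median 128) and from 75.3 to 116 in ABpIF/+ mice (median 77.7), and it was at 68.7, 74.2 and 81.3 CPM in ABpIF/F mice. One ABpIF/+ mouse, labelled BG40, reached the Ctrl range at 116 CPM, while the other 5 were at 79.3 CPM or less, and no ABpIF/F mouse overlapped Ctrl. Against Ctrl, its log2 fold change was -0.61 (SE 0.12, adjusted p = 0.000454) in ABpIF/+ and -0.77 (SE 0.15, adjusted p = 0.000772) in ABpIF/F mice by edgeR, and 0.16 (SE 0.15, adjusted p = 0.593) between the Braf groups. In ABpIF/F mice the mRNA of the modifier subunit was thus below Ctrl while that of the catalytic subunit lay within the Ctrl range. Under the clock covariate the ABpIF/F vs Ctrl value of Gclm was -0.56 (adjusted p = 0.147).

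Nqo1, the NAD(P)H quinone reductase (chr8:107388225-107403206, minus strand), was highest in ABpIF/+ mice. Its level was 7.40 to 13.8 CPM in Ctrl (median 11.5), 13.4 to 17.8 CPM in ABpIF/+ (median 15.2) and 7.37, 8.18 and 12.5 CPM in ABpIF/F mice. ABpIF/+ and ABpIF/F mice did not overlap, and ABpIF/+ and Ctrl mice overlapped by 1 Ctrl mouse. The log2 fold change was 0.47 (SE 0.15, adjusted p = 0.022) in ABpIF/+ vs Ctrl, -0.25 (SE 0.18, adjusted p = 0.481) in ABpIF/F vs Ctrl and 0.71 (SE 0.19, adjusted p = 0.00902) in ABpIF/+ vs ABpIF/F by edgeR. The first call was lost without the Ctrl mouse malpa459 or the ABpIF/+ mouse BG30 (adjusted p up to 0.0592), and the last without BG183 or BG90 (up to 0.0676) and with the clock covariate (0.81, adjusted p = 0.169). Scaling by library totals, which shifts the median gene by -0.177 and -0.189 in the comparisons of ABpIF/+ mice, gave 0.29 (adjusted p = 0.289) and 0.49 (adjusted p = 0.152).

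Hmox1 encodes the inducible heme oxygenase, which opens the heme ring to biliverdin, iron and carbon monoxide (chr8:75093621-75100589, plus strand). Ctrl mice lay within 13.7 to 18.4 CPM (median 15.5). ABpIF/+ mice spread from 13.9 to 57.4 CPM (median 28.9), and ABpIF/F mice were at 19.2, 28.5 and 48.8 CPM. One ABpIF/+ mouse lay in the Ctrl range and all ABpIF/F mice lay above it. Fold changes were 1.04 on the log2 scale (SE 0.30, adjusted p = 0.02) in ABpIF/+ vs Ctrl, 1.05 (SE 0.36, adjusted p = 0.0616) in ABpIF/F vs Ctrl, and near 0 between the Braf groups (SE 0.37, adjusted p = 1) by edgeR. Scaled by library totals the ABpIF/+ value was 0.85 (adjusted p = 0.0624). The ABpIF/F value dropped to 0.61 (adjusted p = 0.461) without BG38, and it passed without BG183, BG31 or BG88 (adjusted p down to 0.0196) and in DESeq2 (1.04, adjusted p = 0.00915). Macrophages also express Hmox1, and their marker sums, given above for ABpIF/+ and Ctrl mice, were 357 to 841 CPM in ABpIF/F mice, BG38 being the highest. Their part in the Hmox1 values was not tested.

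Txnrd1 and Srxn1 encode the cytosolic thioredoxin reductase and sulfiredoxin, which reduce thioredoxin and overoxidized peroxiredoxins, and neither passed in any comparison. Txnrd1 (chr10:82833951-82897712, plus strand) was at 126 to 163 CPM in Ctrl (median 135), 103 to 136 in ABpIF/+ (median 110) and 92.4, 109 and 128 CPM in ABpIF/F mice. Its log2 fold changes against Ctrl were -0.29 (SE 0.11, adjusted p = 0.0654) and -0.33 (SE 0.14, adjusted p = 0.111), and 0.05 (SE 0.14, adjusted p = 1) between the Braf groups. The first passed without BG40 or BG38 (adjusted p down to 0.0281), and both passed in DESeq2 (-0.30, adjusted p = 0.0118, and -0.34, adjusted p = 0.0306). Srxn1 (chr2:152105516-152111376, plus strand) was at 31.1 to 40.1 CPM in Ctrl (median 37.5), 26.0 to 48.4 in ABpIF/+ (median 35.6) and 36.5, 40.5 and 73.6 CPM in ABpIF/F mice. The groups overlapped throughout, and the log2 fold changes were -0.04 (SE 0.16, adjusted p = 1), 0.44 (SE 0.19, adjusted p = 0.135) and -0.48 (SE 0.19, adjusted p = 0.0944). The ABpIF/F value of Srxn1 was 0.06 without BG38 and passed without BG183 (adjusted p = 0.0334), so it depended on which of the 3 mice were used.

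**Figure D2:**
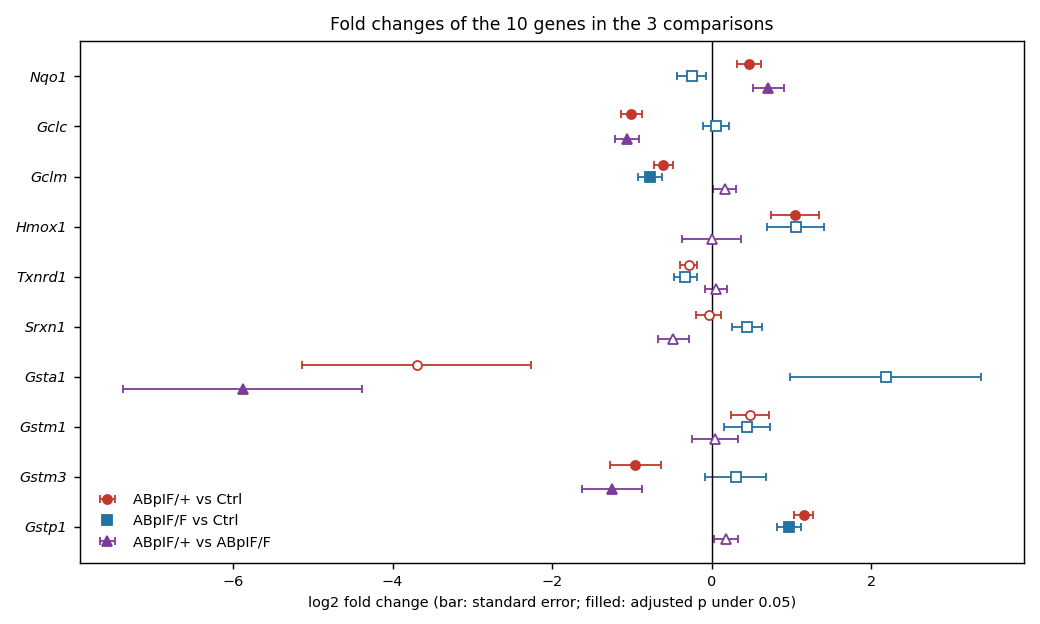
log2 fold change (horizontal axis) of the 10 genes in ABpIF/+ vs Ctrl, ABpIF/F vs Ctrl and ABpIF/+ vs ABpIF/F, with standard errors as bars and filled symbols at an adjusted p under 0.05. Gstp1 is to the right of 0 in both comparisons with Ctrl (1.15 and 0.97), Gclc is near -1 wherever ABpIF/+ mice are compared (-1.01 and -1.06), and the bars of Gsta1 are the longest.

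Gstp1, the pi class glutathione transferase (chr19:4035407-4037985, minus strand), was higher in both Braf groups. It ranged from 119 to 179 CPM in Ctrl mice (median 149) and from 290 to 355 CPM in ABpIF/+ mice (median 340), and it was at 281, 283 and 308 CPM in ABpIF/F mice. No Braf mouse overlapped the Ctrl mice. The log2 fold change was 1.15 (SE 0.12, adjusted p = 2.58e-07) in ABpIF/+ and 0.97 (SE 0.15, adjusted p = 4.45e-05) in ABpIF/F mice against Ctrl, and 0.18 (SE 0.15, adjusted p = 0.547) between them, by edgeR. Both calls against Ctrl held in each of the 15 fits without 1 mouse. With the clock score as a covariate the values were 1.19 (adjusted p = 5.19e-07) in ABpIF/+ and 0.80 (adjusted p = 0.0487) in ABpIF/F mice, the second only just passing. Among mice of the shared cross label the values were 0.88 (adjusted p = 0.0321) and 0.66 (adjusted p = 0.139). A share of 25.1% of its 100-base sequences also occurs in transcripts of Gstp2 and Gstp-ps, so that reads of the 3 genes are not fully told apart. Gstp-ps and Gstp2 were higher in both groups as well, Gstp-ps with log2 fold changes of 1.17 (adjusted p = 3.44e-06) and 0.96 (adjusted p = 0.000448), and Gstp3, a further pi class gene, was not called (0.08 and 0.04).

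Gstm1 and Gstm3 encode mu class transferases and lie near each other on chromosome 3 (chr3:108012255-108017973 and chr3:107963696-107969283, both on the minus strand). Gstm1 was at 809 to 1597 CPM in Ctrl (median 1038), 1246 to 1977 in ABpIF/+ (median 1591) and 961, 985 and 2692 CPM in ABpIF/F mice. The 3 groups overlapped, BG38 being above all other mice and the other 2 ABpIF/F mice being within the lower part of the Ctrl range. Its log2 fold change was 0.48 (SE 0.24, adjusted p = 0.167), 0.44 (SE 0.29, adjusted p = 0.381) and 0.04 (SE 0.29, adjusted p = 1) in the 3 comparisons. Without BG38 these were 0.48 (adjusted p = 0.0385), -0.23 (adjusted p = 0.815) and 0.71 (adjusted p = 0.0717), so the direction in ABpIF/F vs Ctrl turned. Among mice of the shared cross label, which leave 1 Ctrl mouse, the ABpIF/+ vs Ctrl value was only 0.12. That Ctrl mouse, BG3, was at 1460 CPM, within the ABpIF/+ range.

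Gstm3 was at 33.9 to 84.4 CPM in Ctrl (median 52.1), 17.6 to 37.1 in ABpIF/+ (median 29.2) and 32.7, 41.8 and 125 CPM in ABpIF/F mice. The ABpIF/+ mice overlapped both other groups only at their edges. Its log2 fold change was -0.96 (SE 0.32, adjusted p = 0.039) in ABpIF/+ vs Ctrl, 0.30 (SE 0.38, adjusted p = 0.815) in ABpIF/F vs Ctrl and -1.25 (SE 0.37, adjusted p = 0.0303) in ABpIF/+ vs ABpIF/F by edgeR. The first call held in 5 of 15 fits without 1 mouse, with adjusted p between 0.00133 and 0.0896, and was lost without any 1 of malpa387, BG3, malpa454, malpa458, malpa462, BG55, BG40, BG31, BG88 or BG30. Without BG38 it was -0.96 (adjusted p = 0.00133), and the ABpIF/F vs Ctrl value turned to -0.55 (adjusted p = 0.325). The call between the Braf groups was lost without BG38 (-0.41, adjusted p = 0.453) and without BG55, BG88 or BG30. With the clock covariate both calls were lost, at -0.79 (adjusted p = 0.0981) in ABpIF/+ vs Ctrl and -0.57 (adjusted p = 0.862) in ABpIF/+ vs ABpIF/F.

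Gsta1, an alpha class transferase that is low in untreated liver (chr9:78230656-78242684, plus strand), rested on few reads in most mice. Ctrl mice had 1 to 136 counts and a median of 0.466 CPM, the highest being malpa387 at 5.06 CPM. ABpIF/+ mice had 0 to 5 counts and a median of 0.0991 CPM, with 0 counts in BG55 and BG31, and the ABpIF/F mice had 4, 21 and 534 counts, or 0.131, 0.75 and 14.8 CPM. The log2 fold change was -3.70 (SE 1.44, adjusted p = 0.0818), 2.18 (SE 1.20, adjusted p = 0.29) and -5.88 (SE 1.50, adjusted p = 0.0148) in the 3 comparisons by edgeR. Without BG38 the values were -3.70 (adjusted p = 0.0184), -1.40 (adjusted p = 0.759) and -2.31 (adjusted p = 0.405), so the call between the Braf groups rested on that mouse and the direction of ABpIF/F vs Ctrl turned. DESeq2 called the first comparison (-3.80, adjusted p = 0.00542). With the clock covariate the difference between the Braf groups was -2.57 (adjusted p = 0.644). Without malpa387 the ABpIF/F vs Ctrl difference passed, at an adjusted p of 0.0301. Of the 100-base sequences of Gsta1, 80.6% also occur in transcripts of other genes, Gm3776 and Gsta2 first, and its counts are uncertain for that reason too. Sharing was 13.8% for Gstm3, 5.86% for Gstm1 and 2.44% for Gclm, and 0 for the remaining 5 genes.

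BG38 was the highest of the 3 ABpIF/F mice for all 10 genes, which held for 36.9% of genes averaging 1 CPM or more, and the highest of all 15 mice for 4 of them, Srxn1, Gsta1, Gstm1 and Gstm3, against 15.8% of genes. Its level was 33.6 times the mean of the other 2 ABpIF/F mice for Gsta1, 3.37 times for Gstm3, 2.77 times for Gstm1, 2.05 times for Hmox1 and 1.91 times for Srxn1, but 1.15, 1.14 and 1.09 times for Gclc, Gclm and Gstp1. The same 3 transferases were also high in the Ctrl mouse malpa387, at 13.3 (Gsta1), 1.75 (Gstm3) and 1.52 times (Gstm1) the mean of the other 5 Ctrl mice, as was Gclc at 1.49 times. For Gstm1 this was not particular to malpa387. It and BG3 were at 1597 and 1460 CPM, and the remaining Ctrl mice were at 809 to 1076 CPM. Gstm4 split the Ctrl mice in the same way (93.4 and 77.4 against 39.2 to 43.3 CPM). In malpa387 the cholangiocyte sum was 68.4 CPM, the highest of the 6 Ctrl mice, and the neutrophil sum was 1.01 CPM. That cholangiocyte sum was mostly Spp1, the only marker in it that was highest in malpa387 among Ctrl mice. Krt19 was at 1.23 CPM in malpa387 against 2.05 CPM in malpa459, and Epcam at 2.46 against 2.67 CPM in BG3. The sum therefore does not show more cholangiocytes in malpa387. The part of cholangiocytes and neutrophils in the values of either mouse was not tested.

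**Figure D3:**
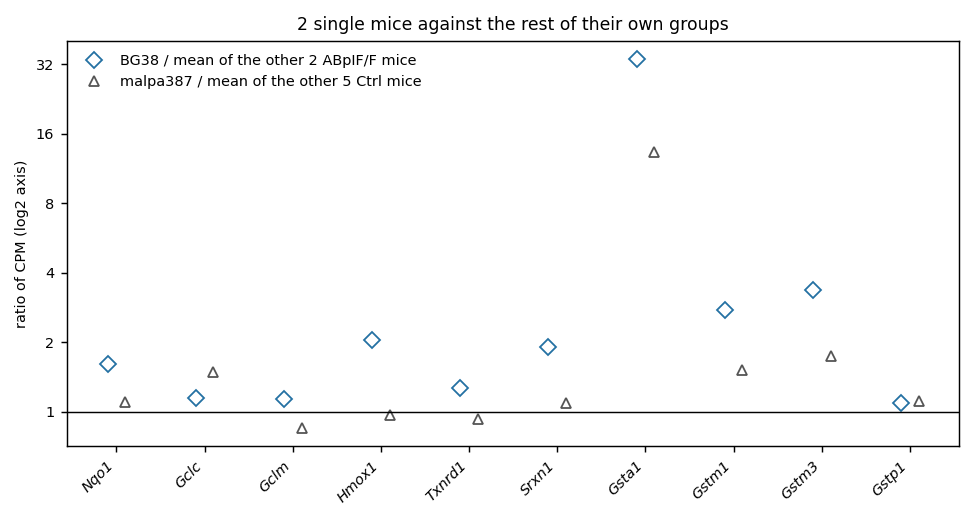
Ratio of CPM (log2 axis) of the ABpIF/F mouse BG38 to the mean of the other 2 ABpIF/F mice, and of the Ctrl mouse malpa387 to the mean of the other 5 Ctrl mice, for the 10 genes. Both mice are highest for Gsta1 (33.6 and 13.3 times), and BG38 is near 1 for Gclc, Gclm and Gstp1.

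The wider glutathione transferase family, 30 genes with the 4 above and the membrane-bound MGST enzymes, held changes in both directions. Against Ctrl 5 genes were higher and 11 lower in ABpIF/+ mice, and 6 were higher and 8 lower in ABpIF/F mice. The median log2 fold change of the 27 with at least 1 CPM was -0.40 and -0.22. Mgst1, a membrane-bound transferase of the endoplasmic reticulum and mitochondria and one of the most abundant of the family, ranged from 1366 to 2349 CPM in Ctrl, 481 to 667 in ABpIF/+ and 475 to 594 in ABpIF/F mice, both below all Ctrl mice (log2 fold changes -1.68, adjusted p = 1.46e-08, and -1.71, adjusted p = 1.27e-06). Mgst2 moved the other way from 3 counts or fewer in each Ctrl mouse, from at most 0.112 CPM in Ctrl to 0.288 to 1.97 CPM in ABpIF/+ and 0.131 to 0.637 CPM in ABpIF/F mice. Among alpha class genes Gsta3 was at 991 to 1696, 920 to 1206 and 386 to 631 CPM in the 3 groups, lower in ABpIF/F than in Ctrl (log2 fold change -1.46, SE 0.20) and than in ABpIF/+ mice. Gsta2 was lower in ABpIF/+ mice (log2 fold change -2.82, SE 0.68, adjusted p = 0.00727). Its value in ABpIF/F vs Ctrl was similar and did not pass (-2.58, SE 0.88, adjusted p = 0.0652), with 0.643, 0.881 and, in BG38, 9.47 CPM. The called Gsta5 had 0 counts in all ABpIF/+ and at most 7 in any Ctrl mouse. Of the mu class, Gstm2, Gstm4 and Gstm6 were lower in ABpIF/+ mice (log2 fold changes -0.74, -1.08 and -0.78) and Gstm5 higher (0.80, adjusted p = 0.000257). In ABpIF/F mice Gstm2 was also lower (-1.12, adjusted p = 8.56e-05) and Gstm5 higher (0.72, adjusted p = 0.00571), while Gstm4 and Gstm6 were not called. Also lower in both Braf groups were the theta class gene Gstt2, the kappa class gene Gstk1 and the omega class gene Gsto1, with Gstt2 at -0.69 and -1.60, Gstk1 at -0.85 and -1.41 and Gsto1 at -0.49 and -1.07 on the log2 scale. Another theta class gene, Gstt3, was lower in ABpIF/F mice (-0.99, adjusted p = 0.028) and gave 0.12 (adjusted p = 0.972) in ABpIF/+ mice. Gstz1 was lower in ABpIF/F mice (-0.70, adjusted p = 0.00372) and gave -0.32 (adjusted p = 0.0826) in ABpIF/+ mice. Between ABpIF/+ and ABpIF/F mice 5 genes of the family were higher in ABpIF/+ (Gsta3, Gstt2, Gstt3, Gstk1 and Gsto1) and 4 lower (Gsta1, Gstm3, Gstm4 and Hpgds). Markers of pericentral hepatocytes, which express many detoxification enzymes, were lower in both groups as given above, and their part in these values was not tested.

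**Figure D4:**
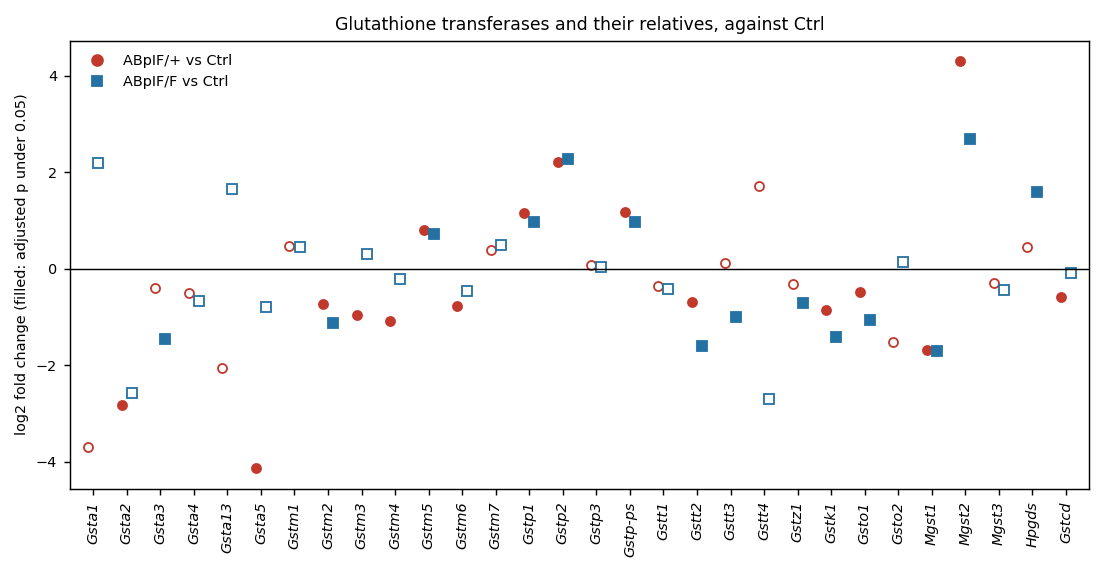
log2 fold change against Ctrl (vertical axis) of 30 glutathione transferase family genes in ABpIF/+ and ABpIF/F mice, filled at an adjusted p under 0.05. Gstp1, Gstp2, Gstp-ps, Gstm5 and Mgst2 are filled and above 0 in both, Mgst1 is near -1.7 in both, and the open symbols of Gsta1 lie on either side of 0. The fitted values of Mgst2 and Gsta5 rest on few counts in one of the groups and are not bounds.

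Among 14 regulators of NRF2, the gene of NRF2 itself was not called. Nfe2l2 was at 45.6 to 63.7 CPM in Ctrl, 45.5 to 61.7 in ABpIF/+ and 34.7 to 66.0 CPM in ABpIF/F mice, with log2 fold changes against Ctrl of -0.05 (SE 0.13) and -0.16 (SE 0.16). Keap1 gave -0.18 and -0.20 (adjusted p = 0.167 and 0.274). In ABpIF/+ vs Ctrl 4 regulators were higher and 4 lower. The higher ones were the small MAF genes Maff and Mafk, the repressor Bach1 and the ligase Cul3, and the lower ones were Nfe2l1 (the NRF2 relative NRF1), Bach2, Mafg and the autophagy adaptor Sqstm1. Maff was at 4.94 to 6.53 CPM in Ctrl, 19.9 to 51.3 in ABpIF/+ and 5.39, 5.78 and 15.7 CPM in ABpIF/F mice (log2 fold change 2.44 and 0.65 against Ctrl, adjusted p = 8.73e-06 and 0.24). Mafk was at 13.8 to 17.1 CPM in Ctrl and at 25.0 to 32.3 CPM in all Braf mice (0.83 and 0.84, adjusted p = 1.01e-06 and 1.88e-05). Bach1 ranged from 58.0 to 85.7 CPM in ABpIF/+ mice and from 25.9 to 56.7 CPM in all others, without overlap. In ABpIF/F vs Ctrl 1 was higher (Mafk) and 2 were lower (Nfe2l1 and Mafg). In ABpIF/+ vs ABpIF/F Maff, Bach1, Cul3 and Rbx1 were higher in ABpIF/+ mice (1.79, 0.89, 0.67 and 0.47 on the log2 scale). Genotype and clock state cannot be told apart in this last comparison either.

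Other genes listed as NRF2 targets, 33 in the table, held more lower than higher genes in both Braf groups. In ABpIF/+ vs Ctrl 4 were higher and 17 lower, and in ABpIF/F vs Ctrl 7 were higher and 14 lower, with a median log2 fold change of -0.45 and -0.31. Between the Braf groups edgeR called 0 higher and 9 lower in ABpIF/+ mice, with 3 higher at an unadjusted p under 0.05 and 3 in DESeq2. The malic enzyme gene Me1, a source of NADPH, had the lowest adjusted p in both comparisons with Ctrl: it was at 204 to 277 CPM in Ctrl, 11.8 to 19.3 in ABpIF/+ and 8.36 to 18.5 CPM in ABpIF/F mice (log2 fold changes -3.85, SE 0.18, and -4.10, SE 0.24). The UDP-glucose dehydrogenase gene Ugdh was lower as well, from 87.2 to 154 CPM in Ctrl to 26.9 to 44.9 CPM in ABpIF/+ mice, and so was Ephx1, the microsomal epoxide hydrolase gene (log2 fold changes -1.59 and -1.88). Ptgr1, a prostaglandin reductase, was higher in both groups, from 4.33 to 5.62 CPM in Ctrl to 6.07 to 14.0 and 11.6 to 14.7 CPM. Osgin1, an oxidative stress-induced growth inhibitor, was opposite in the 2 groups: 55.9 to 170 CPM in Ctrl, 40.7 to 91.6 in ABpIF/+ and 248, 284 and 405 CPM in ABpIF/F mice (log2 fold change -2.16, SE 0.31, adjusted p = 0.000165 in ABpIF/+ vs ABpIF/F). Cbr3 and Tnfaip2 were likewise lower in ABpIF/+ than in ABpIF/F mice (-2.77 and -1.65). Cbr3 rested on few reads, at most 17 counts in ABpIF/+ mice. In ABpIF/F mice it was at 0.718, 2.5 and, in BG38, 5.73 CPM, the lowest of these being within the Ctrl range (0.321 to 1.39 CPM).

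**Figure D5:**
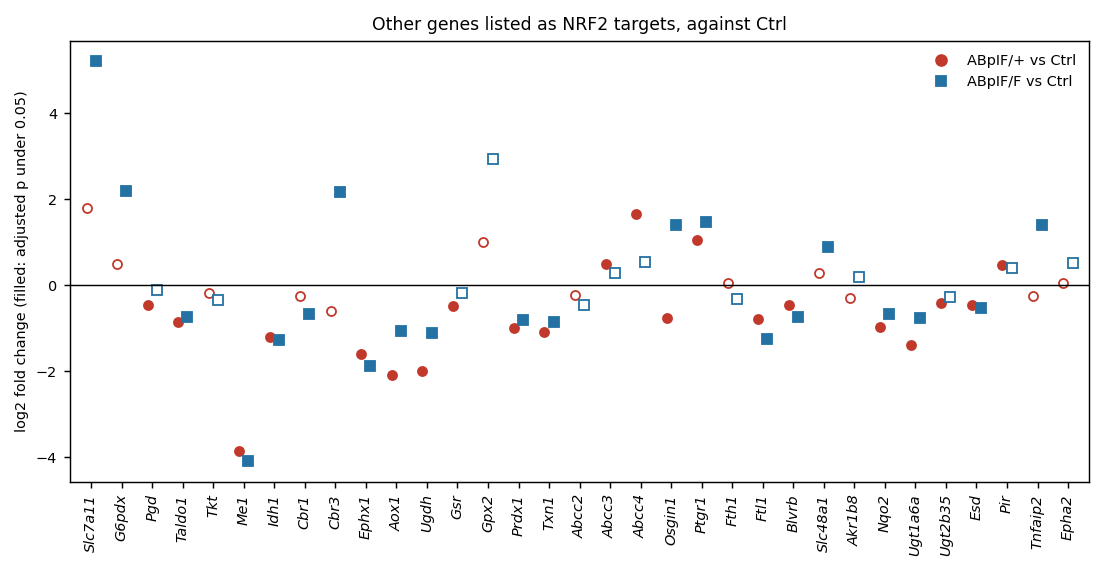
log2 fold change against Ctrl (vertical axis) of 33 further genes listed as NRF2 targets in ABpIF/+ and ABpIF/F mice, filled at an adjusted p under 0.05. Me1 is the lowest in both (-3.85 and -4.10), more filled symbols lie below 0 (17 and 14) than above (4 and 7), and Osgin1 lies on opposite sides of 0.

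Related gene lists were described by the same counts. The lists here and above share genes, Me1, Por and Bach1 among them, so their counts are not independent of each other. Over all genes 12.7% were higher and 12.7% lower in ABpIF/+ vs Ctrl, and 9.70% and 7.36% in ABpIF/F vs Ctrl. Of 31 genes of glutathione synthesis and use, 5 were higher and 10 lower in ABpIF/+ and 5 higher and 12 lower in ABpIF/F mice against Ctrl. The glutathione peroxidase gene Gpx1 led both, at 1383 to 2526 CPM in Ctrl, 259 to 379 in ABpIF/+ and 236 to 423 CPM in ABpIF/F mice (log2 fold changes -2.59 and -2.61). Glrx, a glutaredoxin, was higher in ABpIF/+ than in ABpIF/F mice (1.56, adjusted p = 6.85e-07). Of 17 thioredoxin and peroxiredoxin genes, 2 were higher and 8 lower in ABpIF/+ and 0 higher (1 at an unadjusted p under 0.05, 0 in DESeq2) and 10 lower in ABpIF/F mice by edgeR, Txn1 (-1.09 and -0.86) and Prdx1 (-0.99 and -0.82) among them. Catalase (Cat, -1.88 and -1.33), the paraoxonase gene Pon1 (-2.06 and -1.70) and 5 further antioxidant enzyme genes of 11 were lower in ABpIF/+ mice, and 2 were higher. Heme and iron genes, the setting of Hmox1, gave more higher than lower genes, with 7 higher and 3 lower of 20 in ABpIF/+ and 6 higher and 3 lower in ABpIF/F mice. They included the plasma proteins haptoglobin (Hp, 2.08 and 1.99), transferrin (Trf, 1.47 and 1.45) and ceruloplasmin (Cp, 1.89 and 1.80), while Alas1, the first enzyme of heme synthesis, was higher in ABpIF/+ than in ABpIF/F mice (3.15 on the log2 scale, adjusted p = 0.00179). Of 18 NADPH and quinone enzyme genes, the setting of Nqo1, 1 was higher and 8 lower in ABpIF/+ and 2 higher and 8 lower in ABpIF/F mice. A list of 13 genes held those of the xenobiotic receptors CAR and PXR, which also act on transferase genes, together with their targets. Of these 13, 2 were higher and 10 lower in ABpIF/+ mice by edgeR. In ABpIF/F mice 0 were higher (also 0 at an unadjusted p under 0.05 and in DESeq2) and 8 lower. Por, the P450 reductase gene, was at -2.13 in ABpIF/F vs Ctrl and 2.72 in ABpIF/+ vs ABpIF/F. In the Ctrl mouse malpa387, whose clock score was high, Por was at 286 CPM against 749 to 896 CPM in the other Ctrl mice. Alas1 was at 196 CPM in it against 344 to 1486 CPM in the others. Values with the clock covariate were taken only for the 10 genes. They were not taken for these lists, the wider transferase family, the NRF2 regulators or the other listed NRF2 targets. For all of these, genotype and clock state cannot be told apart between the Braf groups.

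For the 2 genes past the stricter rule, the genes with the most similar pattern were found by the root mean square difference of centred log2 CPM over the 15 mice, among 12316 genes. Those closest to Gclc were Tgoln1 (0.116), Ntng2 (0.172) and Rab32 (0.179), where Gclc itself varied by 0.528 about its mean. Those closest to Gstp1 were Ldaf1 (0.13), Faap20 (0.139) and Plpp2 (0.147), where Gstp1 varied by 0.567. None of these 6 was on the lists above.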

How the data were processed

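Total RNA of liver was extracted with Trizol and made into stranded mRNA libraries. The authors mapped paired-end reads to mm10 using HISAT2, and featureCounts 2.0.8 gave reads per gene. The deposited values are raw counts per gene and mouse, not normalized. The gene annotation and the strand setting are not given in the sources used here. The study lists 23 samples for 15 mice (8 mice are named by 2 samples), and each mouse has 1 column, assigned by the mouse name in its header. Replicates are different mice. The authors' own fold changes and p-values in the second table were not used, nor were 5 of its count columns, headed only by a number. The other 10 columns equalled the first table in 271790 of 271790 values.

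Counts of all 27179 genes were fitted in R 4.3.3 with edgeR 4.0.16 (TMM, robust estimation, quasi-likelihood F-test in the form of edgeR 3, 3 groups in 1 fit, Benjamini-Hochberg). SE is the absolute log2 fold change divided by the square root of F. CPM are TMM-scaled, and log2 CPM for likeness used a prior count of 2. On simulated data the fit recovered 100% of 200 changed genes in ABpIF/+ vs Ctrl and called 6 unchanged ones. No change was simulated between ABpIF/F and Ctrl mice, so recovery in that comparison was not tested. The simulation checks that the fit runs correctly and is not an estimate of power for the genes described above. Positions and exon lengths are from the GENCODE M21 annotation of GRCm38, promoters from RefSeq.

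The named genes are the 10 genes, all of the transferase family and NRF2 regulators, and of each other list up to 3 changed genes per comparison with the lowest adjusted p and at least 1 CPM in a group, plus the 3 most similar genes. The 10 genes and the lists were chosen with earlier results of these data known. Alternatives were RLE and total-count scaling, DESeq2 1.42.0, filterByExpr, edgeR 4's method, no robust estimation, other thresholds, fits on 2 groups, 1 cross label, a clock score covariate and leaving out each mouse. Proteomics were not analysed here.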

Additional observations from a re-analysis of the deposited data

Results flagged for a closer look

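With 20 combinations of gene and group of 6 mice examined, 3 held a mouse whose gap to its nearest neighbour on the log2 scale was a larger part of the group's range than Dixon's critical value of 0.625 allows, and chance flags about 1 in 20 such groups. All 3 were the highest mouse of the ABpIF/+ group. Gclm was at 116 CPM in BG40 (gap 0.88 of the range), where the other 5 mice were at 75.3 to 79.3 CPM. Txnrd1 was at 136 CPM in the same mouse (0.69), where the others were at 103 to 112 CPM. Gclc was at 107 CPM in BG175 (0.743), where the others were at 90.2 to 94.3 CPM. Without BG40 the Txnrd1 difference between ABpIF/+ and Ctrl mice passed (log2 fold change -0.35, adjusted p = 0.0281), and that of Gclm was -0.73. Groups of 3 were not examined in this way, so BG38 among the ABpIF/F mice is outside this count.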

How the results depend on the processing

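Gclc and Gstp1 in ABpIF/+ vs Ctrl were changed under each alternative run. Of 6 genes changed there, 2 remained by count under the stricter rule, 3 at an adjusted p under 0.01 and 2 among mice of the shared cross label, where Ctrl is 1 mouse assumed to vary like the others, and leaving out 1 mouse gave 4 to 9 (9 without BG38). Of 2 in ABpIF/F vs Ctrl, the count was 0 under the stricter rule, 4 in DESeq2, 4 with filterByExpr, 1 with the clock covariate and 1 in the shared cross label, and 2 to 4 without 1 mouse (4 without BG183). Of 4 in ABpIF/+ vs ABpIF/F, it was 1 under the stricter rule, 2 at an adjusted p under 0.01 and 0 with the clock covariate, and 2 to 5 without 1 mouse (2 without BG38). The causes were not tested. With the clock covariate, edgeR called 0 of the 10 in the last comparison (1 higher and 1 lower at an unadjusted p under 0.05, no other tool being run with it), and the covariate separates its 2 groups. Over single fold changes and fits, 658 kept their side of the threshold, 27 gained a call and 35 lost it, and no called one turned direction. The second deposited table was not run as a fit, since its read columns hold the same counts. No paired analysis was possible because each mouse has 1 column and no label pairs mice across groups. The 3 ABpIF/F mice limit precision, and Gsta1 is limited by its counts.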
